A study of Mus musculus with 16 samples.

Results

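MK801, a blocker of the NMDA receptor channel, was given to tumour-bearing mice for 3 days, and the tumour transcriptomes were set against those of mice of the same strain that did not receive it. The comparison used 12 of the 16 libraries of the series, chosen by their labels: 5 MK801 libraries and 7 B6 controls. All were made from pancreatic neuroendocrine tumours of RIP1Tag2 mice on the C57Bl/6 (B6) background, taken at 14 to 16 weeks of age, the end stage of the disease. Mice of the MK801 group received 1 mg/kg by intraperitoneal injection once a day. The controls were untreated or had normal saline, and the labels do not say which was which, nor which sex was used or at what hour tumours were taken, so the drug and the injections cannot be told apart here. A further 4 control libraries came from RIP1Tag2 tumours on the C3HeB/Fe (C3H) background. They entered the fit, where they shared in the low-count filter, the scaling and the estimate of spread. The principal components and the correlations with leukocyte genes given below used them too. In every group the SV40 T antigens were driven by the rat insulin promoter, so the model is a tumour of insulin-producing beta cells induced by viral oncoproteins. Nothing in the labels says whether libraries come from different mice, and the p-values therefore measure the spread between these libraries, which may in part be technical.

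The NMDA receptor is a glutamate-gated cation channel, and its scaffold protein GKAP, the product of Dlgap1, joins PSD-95 to the Shank proteins beneath the receptor. A tumour sample holds beta-cell-derived tumour cells together with macrophages, other leukocytes, vessels and fibroblasts. Antigen-presenting cells carry MHC class II molecules, which show peptides to CD4 T cells, and the class II genes are switched on together by the coactivator CIITA, which acts through proteins bound to a shared set of short promoter elements. Monocytes enter tissues by way of the receptor Ccr2 and its chemokine ligands.

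The libraries held 38561334 to 57013815 estimated counts. Insulin transcripts took 1.23% to 6.6% of the counts in B6 controls and 2.14% to 4.73% after MK801, and the beta-cell transcription factors Pdx1 and Neurod1 were present in every B6 library, at 7.84 CPM or more and 238 CPM or more. CPM are counts scaled to a common library size. Digestive enzyme transcripts of acinar cells took 0.0058% to 5.87% in controls and 0.122% to 2.21% after MK801. The trend of a library's values with the GC content of the genes ran from -0.457 to 0.589 in controls and from -0.294 to 0.169 after MK801. Of the variance over all libraries, the first principal component held 30.4% and did not part the groups, while on the second, with 16.5%, the MK801 libraries scored 26.11 to 67.24 and the B6 controls -39.92 to 22.93. The C3H controls scored -84.34 to -33.14 on the second. On the first, C3H control replicate 1 scored highest (104.38, GC trend 0.457) and B6 control replicate 6 lowest (-99.36, GC trend -0.389). The link of the first component to the GC trend was not tested.

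After MK801 a set of immune genes was lower, led by class II antigen presentation and by the chemokines Ccl2, Ccl7 and Ccl12. A smaller and more mixed set was higher, led by Fam107a, an actin-associated gene of stress responses. That set also held Mdm1, a microtubule-binding protein of centrioles, and Fkbp5, a co-chaperone of the glucocorticoid receptor. At an adjusted p under 0.05, 24 of the 16084 genes that entered the test rose and 76 fell (edgeR quasi-likelihood test, Benjamini-Hochberg adjustment), which is 0.149% and 0.473% of the genes, or 0.622% together. At an unadjusted p under 0.05 in that fit, 563 genes were higher and 1367 lower, and DESeq2 called 105 higher and 536 lower. The list counts given below stand beside these totals. In tissue of mixed cells, fewer cells of a type and less RNA per cell cannot be told apart, here and in all that follows. The log2 fold changes ran from 0.74 for Nrbf2 to 6.75 for Fam107a among the rises and from -0.76 for Tmem106a to -4.03 for Ccl7 among the falls (the call of Tmem106a was lost without control replicate 7 or MK801 replicate 2, 3 or 4). In 18 of the 24 rises and 68 of the 76 falls the MK801 and control libraries did not overlap. Over all genes tested the MK801 libraries lay above all controls for 44 genes (0.274%) and below all controls for 184 (1.14%). The median log2 fold change of all genes was -0.03, with 53.7% of them below 0.

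**Figure D1:**
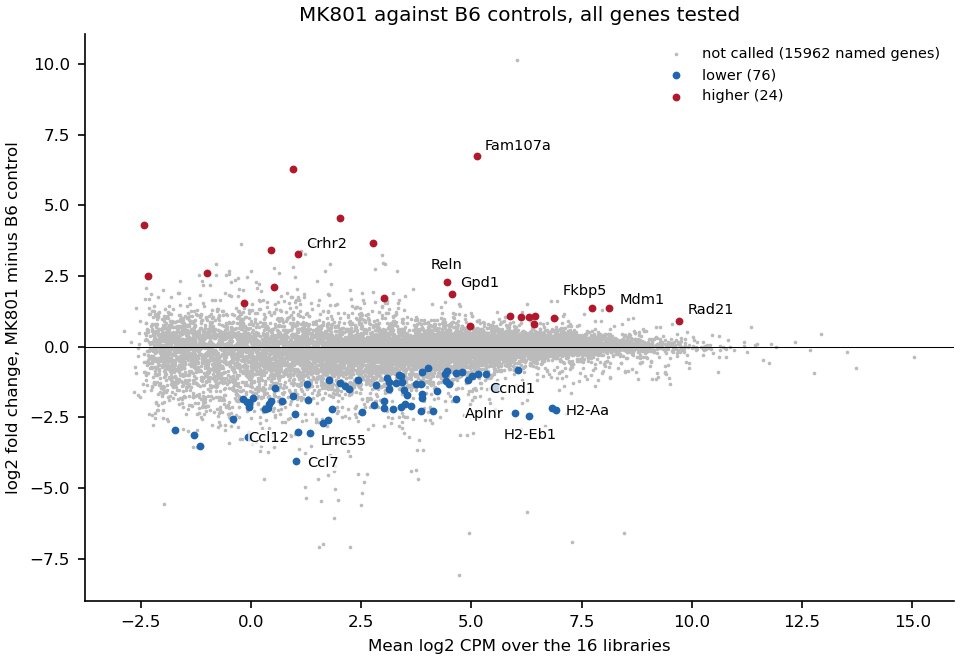
Each point is a gene tested, with its mean log2 CPM over the 16 libraries on the x axis and its log2 fold change (MK801 minus B6 control) on the y axis; red points are the 24 genes called higher, blue points the 76 called lower and grey points the others. Fam107a has the largest rise, at 6.75, followed by Plch2 at 6.28, and most blue points lie between -1 and -3 over a wide range of levels.

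These counts rested on few libraries. Without MK801 replicate 2, 3 or 4, the numbers of higher and lower genes were 6 and 2, 7 and 9, and 2 and 2. Without B6 control replicate 1 the number of lower genes was 30. Without control replicate 3 the counts were 13 and 33, and without control replicate 7 they were 11 and 17. Without MK801 replicate 5 the counts grew to 37 and 165. When the 12 B6 libraries were fitted alone, without the C3H libraries, 7 genes were higher and 3 lower: Aplnr, Ccl2 and Ccl7 fell and Asb9, Cnot8, Fam107a, Fkbp5, Gpd1, Mdm1 and Nrbf2 rose. The calls of Fam107a, Mdm1, Ccl7 and Aplnr held whichever of the 12 libraries was left out. Cwh43 held without each control and without MK801 replicate 1, but did not pass the low-count filter without MK801 replicate 2, 3, 4 or 5 and was not tested there.

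**Figure D2:**
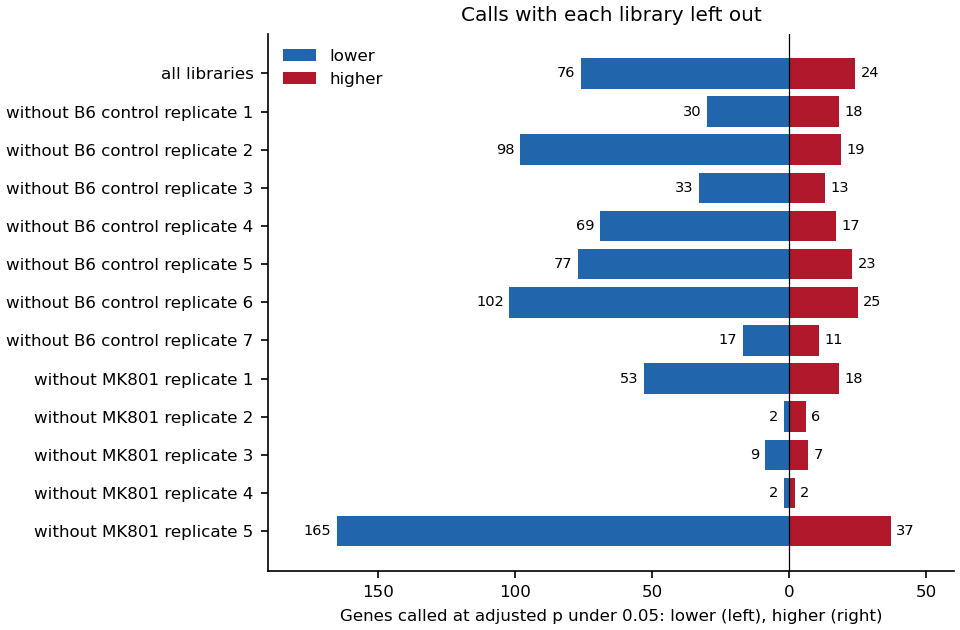
Bars give the number of genes called lower (blue, to the left) and higher (red, to the right) with all libraries and with each B6 control or MK801 library left out in turn. The bars shrink to 2 and 2 without MK801 replicate 4 and grow to 165 and 37 without MK801 replicate 5.

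Class II antigen presentation had the most called members of the 44 lists. Of its 11 genes, 7 fell, none rose and all 11 had a negative log2 fold change, with a median of -1.85 beside -0.03 over all genes. The 7 were the class II alpha and beta chain genes H2-Aa, H2-Ab1 and H2-Eb1, the invariant chain Cd74, the peptide-loading chains H2-DMa and H2-DMb1, and H2-Ob, a chain of the modulator of peptide loading. Whether each chain forms a working molecule in this strain was not measured. RefSeq promoter windows were matched for 5 of these 7 genes, in the GRCm38.p6 build, which is not the mm9 build of the counts. A CCAAT element in reverse orientation, which reads ATTGG, is part of the Y box known from class II promoters. The 160 bases before the annotated start are shown for the 4 genes with the letters ATTGG on the sense strand, in capitals, at 48, 59, 61 and 57 bases before the start of H2-Aa, H2-Eb1, H2-DMb1 and H2-Ob. They lie at chr17:34287824-34287983 (minus strand), chr17:34305707-34305866, chr17:34153031-34153190 and chr17:34238745-34238904 (plus strand). In H2-Eb1 the capitals also mark CCAAT on the sense strand, 35 bases before the start.
H2-Aa: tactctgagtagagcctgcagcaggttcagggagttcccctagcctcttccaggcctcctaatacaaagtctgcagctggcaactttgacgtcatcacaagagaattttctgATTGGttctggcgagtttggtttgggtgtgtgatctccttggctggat
H2-Eb1: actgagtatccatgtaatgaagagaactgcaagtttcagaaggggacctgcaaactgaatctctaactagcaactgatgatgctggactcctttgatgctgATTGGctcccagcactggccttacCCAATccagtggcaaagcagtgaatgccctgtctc
H2-DMb1: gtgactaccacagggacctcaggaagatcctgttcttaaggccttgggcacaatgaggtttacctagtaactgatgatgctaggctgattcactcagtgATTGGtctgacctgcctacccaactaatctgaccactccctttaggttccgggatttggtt
H2-Ob: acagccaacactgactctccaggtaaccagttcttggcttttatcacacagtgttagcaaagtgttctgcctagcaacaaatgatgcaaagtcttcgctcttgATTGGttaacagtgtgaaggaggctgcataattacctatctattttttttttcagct
Of the 2 windows of H2-DMa, 1 held the letters, 198 bases before its start. CCAAT on either strand was found in 37.4% of the 32851 windows in the RefSeq table, and ATTGG on the sense strand from 75 to 45 bases before the start, a span chosen after these positions were seen, in 4.22%. A match of letters is not evidence of binding.

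In the libraries, H2-Eb1 stood at 50.5, 25.9, 8.34, 13.5 and 14.0 CPM in MK801 replicates 1 to 5 and at 60.6 to 197 CPM in the controls, with a median of 103.5. All 5 MK801 libraries lay below all 7 controls, replicate 1 closest to them and replicate 3 lowest. The log2 fold change was -2.44 with a standard error of 0.426 (edgeR's adjusted p = 0.0233). H2-Ab1, another class II beta chain gene, ran the same way, at 43.0, 20.02, 7.21, 12.4 and 13.1 CPM against 50.3 to 144 CPM in controls (median 95.4; log2 fold change -2.35, standard error 0.399, edgeR's adjusted p = 0.0215). H2-Aa, the alpha chain that pairs with H2-Ab1, reached 82.6 CPM in replicate 1 and only 12.9 to 40.9 CPM elsewhere, below the lowest control at 85.4 CPM. Cd74, the chaperone of newly made class II molecules, reached 77.9 CPM in replicate 1 and only 14.0 to 35.2 CPM elsewhere, below the lowest control at 87.7 CPM. The falls of H2-Aa and Cd74 were 2.25 and 2.16 in log2 units, decreases past the test for both (edgeR's adjusted p = 0.0303 and 0.0243).

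The genes of peptide loading fell too. In log2 units H2-DMa fell by 1.19, H2-DMb1 fell by 1.47 and H2-Ob fell by 1.85, each without overlap between the groups. H2-DMa was at 2.34 to 4.12 CPM after MK801 and 4.69 to 9.88 CPM in controls. Ciita, the gene of the coactivator itself, had a log2 fold change of -1.94 and did not pass the test (edgeR's adjusted p = 0.0734). Its values were 0.779, 0.442, 0.181, 0.458 and 0.217 CPM after MK801, against 0.541 to 2.50 CPM in controls, so that replicate 1 lay inside the control range. H2-Oa, H2-DMb2 and H2-Eb2 had log2 fold changes of -1.55, -1.11 and -1.43 (edgeR's adjusted p from 0.102 to 0.149). The split of reads between H2-DMb1 and H2-DMb2, which are near-identical copies, is uncertain. Without MK801 replicate 2, 3 or 4, none of the 11 genes was called at an adjusted p under 0.05, and without control replicate 7 the count was 4. H2-Aa lost its call also without control replicate 1 or 3, and H2-DMa without control replicate 1, 3 or 5 (edgeR's adjusted p of up to 0.125).

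Class II levels can also be set beside those of macrophage genes. The mean log2 CPM of the class II list less that of the macrophage list was -3.12 to -2.29 in controls and -4.16 to -2.93 after MK801, with replicate 1 inside the control range and the other 4 below it. Beside monocyte genes the class II list did not stand apart in this way. The group means differed by -1.79 for class II, -0.73 for macrophage and -1.74 for monocyte genes. The macrophage list had a median log2 fold change of -0.69, and edgeR called 1 of its 19 genes, Ms4a7, a membrane protein of tissue macrophages, which fell by 0.97. DESeq2 called 11 and limma-voom 5 of the 19, and 16 were lower at an unadjusted p under 0.05. Ms4a7 stood at 30.8, 23.2, 24.8, 15.9 and 39.2 CPM after MK801 and at 41.0 to 69.6 CPM in controls, without overlap. Emr1, the F4/80 antigen, and Csf1r, the receptor for macrophage growth factor, had log2 fold changes of -0.69 and -0.56 (edgeR's adjusted p = 0.149 and 0.404). MK801 replicate 5 reached 106 CPM of Csf1r, inside the control range of 63.4 to 143 CPM. Ms4a7 lost its call without MK801 replicate 1, 2, 3 or 4 or without control replicate 1, 3, 4, 5 or 7 (edgeR's adjusted p of up to 0.134).

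Chemokine genes that draw monocytes were lower as well. Of 22 chemokine and receptor genes tested, 3 fell and none rose, with a median log2 fold change of -1.27. These are calls of edgeR, while DESeq2 called 10 lower in that list, 8 of the 11 monocyte genes, 8 of the 12 pan-leukocyte genes, 6 of the 14 complement genes and 10 of the 11 class II genes. Ccl7 stood at 0.082, 0.221, 0.155, 0.196 and 0.145 CPM in MK801 replicates 1 to 5, and at 0.627 to 5.05 CPM in controls (median 1.80). Every MK801 library lay below every control, and the fall was 4.03 on the log2 scale with a standard error of 0.544 (edgeR's adjusted p = 0.00818). Ccl12 stood at 0.348, 0.287, 0.155, 0.284 and 0.813 CPM against 1.13 to 5.91 CPM in controls (median 2.61), a fall of 3.00. Ccl2 stood at 0.656, 0.707, 1.03, 0.633 and 0.723 CPM against 2.12 to 6.02 CPM in controls (median 2.86), a fall of 2.19. All 3 encode ligands of Ccr2, and neither group of libraries overlapped the other for any of them. Ccr2 itself had a log2 fold change of -2.78 and did not pass the test (edgeR's adjusted p = 0.0599), although its MK801 values of 0.579 to 3.94 CPM lay below the control values of 5.05 to 33.7 CPM. Ccl2 and Ccl12 lost their calls without MK801 replicate 2 or 4 (edgeR's adjusted p of up to 0.0591 and 0.0697).

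Of the monocyte list 3 of 11 genes fell and none rose, and the median log2 fold change was -2.02. They were Clec4a1 and Clec12a, C-type lectin receptors of myeloid cells, and Plac8. Clec4a1 stood at 0.881, 1.06, 0.284, 1.75 and 0.542 CPM after MK801 and at 1.98 to 11.8 CPM in controls (median 4.67). Clec12a stood at 1.21, 1.30, 0.956, 1.83 and 3.65 CPM, just under the lowest control of 3.69 CPM in replicate 5. The fall was 2.57 for Clec4a1 and 2.30 for Clec12a on the log2 scale, and 2.02 for Plac8 (edgeR's adjusted p = 0.0424, 0.0266 and 0.0330). Ly6c2, the marker of classical monocytes, had a log2 fold change of -2.56 that did not pass (edgeR's adjusted p = 0.0958). The mean log2 CPM of the list was -0.25 to 1.23 after MK801 and 1.49 to 3.67 in controls. Clec4a1 lost its call without any single MK801 library or without control replicate 1, 3, 6 or 7, Clec12a without MK801 replicate 1, 2, 3 or 4 or control replicate 7, and Plac8 without MK801 replicate 2, 3 or 4 or control replicate 7 (edgeR's adjusted p of up to 0.122).

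Lymphocyte lists had low medians and no called member. The median log2 fold change was -1.56 for 15 T cell genes, -1.40 for 7 NK cell genes and -1.32 for 10 B and plasma cell genes, with 0 called by edgeR in each. Since 0.622% of all genes were called, 0 calls in lists of this size is close to that share. At an unadjusted p under 0.05, 12, 6 and 8 of them were lower, and DESeq2 called 8, 2 and 3. Over all 16084 genes these counts were 1367 and 536. Cd3e, part of the T cell receptor complex, stood at 0.0820, 0.0221, 0.0258, 0.0437 and 0.434 CPM after MK801 and at 0.206 to 0.915 CPM in controls. MK801 replicate 5 lay inside the control range and the other 4 below it (log2 fold change -2.13, edgeR's adjusted p = 0.146). Outside these lists, some genes known from lymphocytes were picked from the called falls, so their direction was given by that choice. They were Cd69, an early activation marker, Cd72 and Blnk, of B cell receptor signalling, Il2rg, the shared cytokine receptor chain, Spn, leukosialin, and Ctsw, cathepsin W. Their falls ran from 1.32 (Il2rg) to 2.15 (Cd69) on the log2 scale, and which cells expressed them was not measured. The call of each gene named as falling here was lost without MK801 replicate 2, 3 or 4 or control replicate 1, 3 or 7 (edgeR's adjusted p of up to 0.135). Cd69 and Blnk lost theirs also without MK801 replicate 1 and, with Ctsw, without control replicate 4 or 5.

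Interferon-stimulated genes all pointed down. All 32 genes tested had a negative log2 fold change, with a median of -1.22. By edgeR 2 fell, Zbp1, a sensor of Z-form nucleic acids, and Ifi27l2a, while DESeq2 called 18 and 25 were lower at an unadjusted p under 0.05. Zbp1 stood at 4.90, 2.52, 0.982, 1.66 and 4.57 CPM after MK801 and at 5.88 to 27.0 CPM in controls (median 11.6), without overlap and with replicates 1 and 5 closest to the controls. Ifi27l2a stood at 6.91, 5.79, 1.03, 2.75 and 4.59 CPM, against 7.24 to 34.0 CPM in controls (median 21.4). The 2 genes fell by 2.27 and 2.25 log2 units (edgeR's adjusted p = 0.0374 and 0.0406). As a whole the list was below all controls in 3 of the 5 MK801 libraries, and replicates 1 and 5 lay inside the control range. Isg15, a ubiquitin-like protein, had a log2 fold change of -1.80 (edgeR's adjusted p = 0.0567), with MK801 values of 2.58 to 8.94 CPM just under the lowest control of 8.95 CPM. Picked from the called falls outside the list were the membrane protein genes Ifitm3 and Ifitm2 and the GTPase gene Ifi47. They fell by 1.46, 1.16 and 1.65 on the log2 scale. Reads may be split uncertainly between the close paralogs Ifitm3 and Ifitm2. The letters GAAANNGAA, the core of interferon response elements, were found on either strand in the promoter windows of Ifitm2 and Ifitm3 and not in that of Ifi47, beside 8.56% of all windows. The calls of all 5 ended without MK801 replicate 2, 3 or 4, and all but Ifitm3 also without control replicate 1, 3 or 7 (edgeR's adjusted p of up to 0.151). Ifi27l2a and Ifi47 lost theirs without control replicate 5, Ifitm2 and Ifi47 without control replicate 4, Ifitm2 without control replicate 2 and Ifi47 without MK801 replicate 1.

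The 21 interferon-gamma-induced genes, the 17 class I genes and the 13 dendritic cell genes had low medians as well, at -1.23, -0.73 and -0.96 in log2 fold change. In each edgeR called 0, which for lists of this size is close to the 0.622% of all genes. At an unadjusted p under 0.05, 18, 9 and 8 of them were lower, and DESeq2 called 11, 2 and 5. Cxcl10, a T cell attractant induced by interferon-gamma, had a log2 fold change of -2.44 (edgeR's adjusted p = 0.0669). B2m, the light chain of class I molecules, had a log2 fold change of -1.31 (edgeR's adjusted p = 0.109). In the complement list 1 of 14 genes fell: C2, a protease precursor of the classical pathway, by 2.10 on the log2 scale, from 5.27 to 24.5 CPM in controls to 1.55 to 4.66 CPM after MK801. C2 lost its call without control replicate 1, 3 or 7 or MK801 replicate 1, 2, 3 or 4 (edgeR's adjusted p of up to 0.109).

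**Figure D3:**
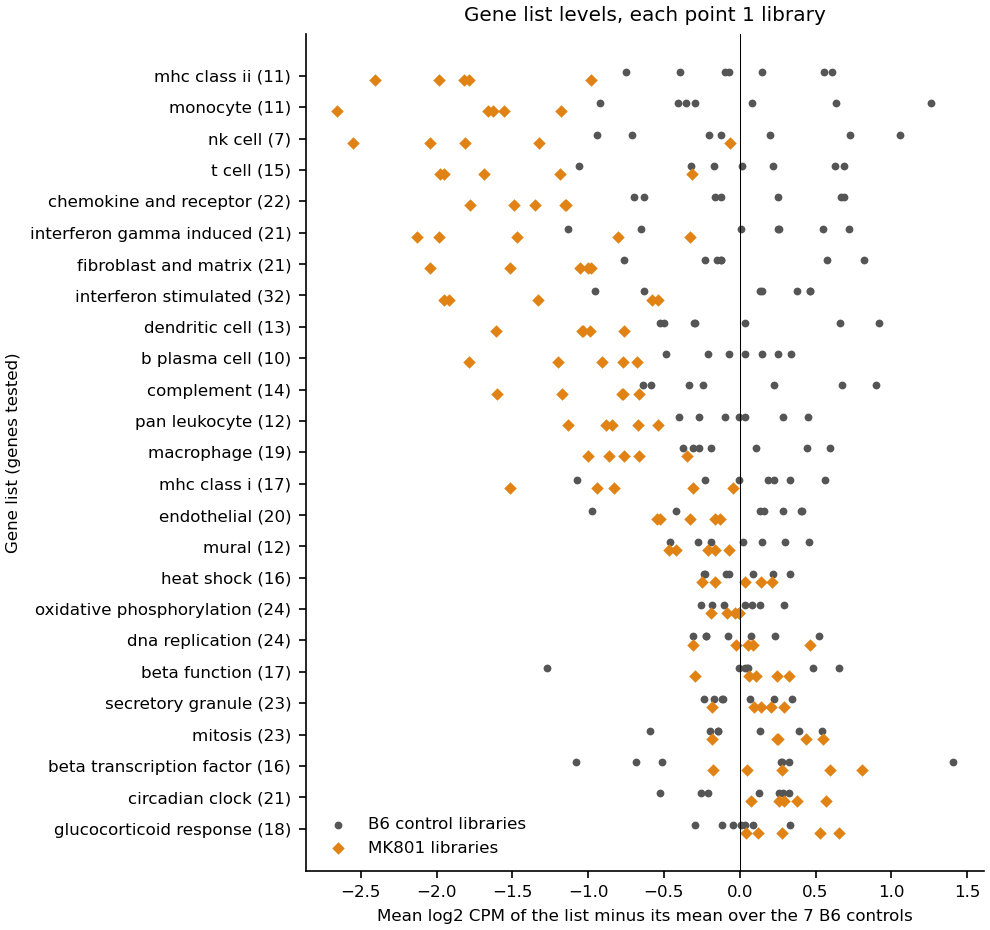
Each row is a gene list with the number of its genes tested, and each point is a library, placed on the x axis by the list's mean log2 CPM less the average of the 7 B6 controls; grey circles are controls and orange diamonds MK801 libraries. All 5 diamonds lie left of all circles in the class II, monocyte, chemokine, fibroblast, dendritic cell, B and plasma cell, complement and pan-leukocyte rows, and inside the circles in the endothelial, beta-cell function and oxidative phosphorylation rows.

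General leukocyte content moved with these falls. The pan-leukocyte list of 12 genes, which holds Ptprc, the CD45 antigen of all white blood cells, averaged 3.35 to 3.94 log2 CPM after MK801 and 4.08 to 4.93 in controls, so that all 5 MK801 libraries lay below all controls. In that list 2 genes fell, Cd52, a surface glycoprotein, and Arhgdib, a regulator of small GTPases, by 1.57 and 1.02 on the log2 scale. Ptprc had a log2 fold change of -0.86 and did not pass (edgeR's adjusted p = 0.244), with 49.0 CPM in MK801 replicate 5 and 20.1 to 29.6 CPM in the others, against 27.9 to 81.8 CPM in controls. Both calls were lost without MK801 replicate 2, 3 or 4, and that of Arhgdib also without MK801 replicate 1 or 5 or control replicate 1, 3, 4, 6 or 7 (edgeR's adjusted p of up to 0.119).

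The 11 control libraries of both strains, which hold no MK801 library, give a measure of which genes vary with leukocyte content. They include the 7 B6 controls against which the falls were called. For each gene Spearman's rho with the pan-leukocyte mean was taken across these libraries after centring within strain. As a description with no test, rho reached 0.7 for 30 of the 76 falls (39.5%) and 0 of the 24 rises, beside 941 of all 16084 genes (5.85%). The median rho was 0.632 for the falls, -0.002 for the rises and 0.032 for all genes. The points share library depth and base composition. The pan-leukocyte mean includes Cd52 and Arhgdib, which are themselves falls, and Cd52 (0.755) is among the 30. Among the falls, H2-Ob (0.982), Fgr, a tyrosine kinase of myeloid cells (0.955), and H2-DMb1 (0.955) had the highest rho. Fgr lost its call without control replicate 1, 3 or 7 or MK801 replicate 1, 2, 3 or 4, and H2-DMb1 without control replicate 7 or MK801 replicate 2, 3 or 4. With the pan-leukocyte mean as a covariate, edgeR called 0 genes in either direction, with 856 at an unadjusted p under 0.05, beside 1930 without it. The log2 fold changes of all 76 falls kept their sign, but many were much smaller. They ran from -0.059 for Ctsh to -2.77 for Ccl7, which had -0.82 and -4.03 without the covariate. H2-DMb1 went from -1.47 to -0.305 and H2-Ab1 from -2.35 to -1.08. Because every MK801 library lay below every control on that covariate, treatment and leukocyte content cannot be told apart in that fit. The covariate was not run with the other tools.

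**Figure D4:**
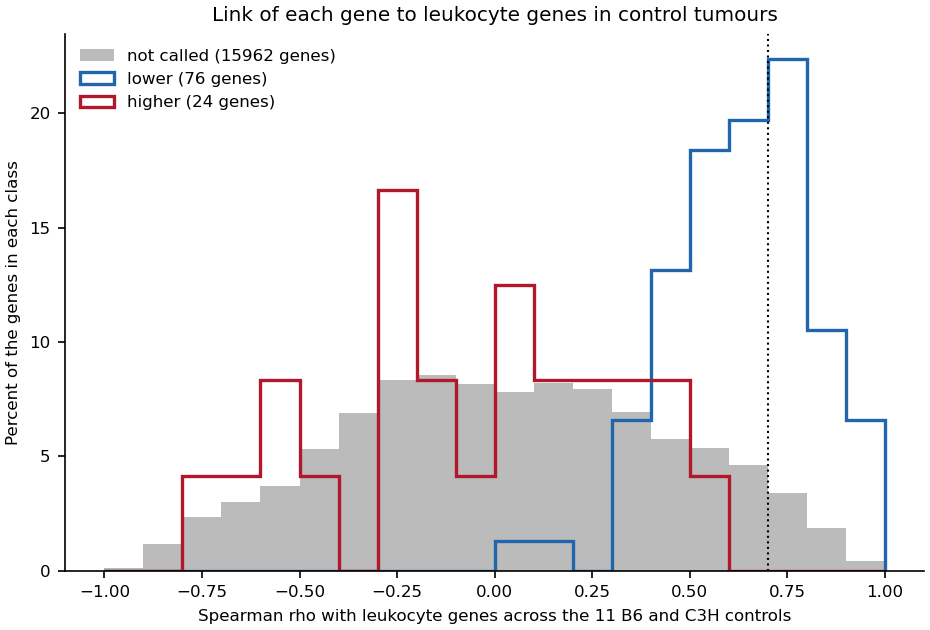
The x axis is Spearman's rho of each gene with the pan-leukocyte mean across the 11 B6 and C3H control libraries, and the y axis is the percent of genes in each class: grey filled bars for genes not called, the blue outline for the 76 lower genes and the red outline for the 24 higher genes. The blue outline lies to the right of the grey, with 39.5% of its genes at or past the dotted line at 0.7, and the red outline has none there.

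A minority of the falls had little link to leukocyte genes in the controls. Spearman's rho was under 0.4 for 7 of the 76, beside 78.2% of all named genes. They were Cyb5, an electron carrier of the endoplasmic reticulum (0.036), Cish, a feedback inhibitor of cytokine receptors (0.145), Lrrc55, an auxiliary subunit of BK potassium channels, Ch25h, which makes 25-hydroxycholesterol, and the membrane protein gene Mxra8 (0.30 each), Pstpip1 (0.355) and Wisp2 (0.373). Cish stood at 2.17, 1.503, 2.02, 1.51 and 2.08 CPM after MK801 and at 2.27 to 11.1 CPM in controls (median 7.01), a fall of 1.83 (edgeR's adjusted p = 0.0281). All 5 MK801 libraries lay close together under the lowest control. Lrrc55 stood at 0.758, 0.464, 0.775, 0.480 and 0.271 CPM against 0.704 to 13.6 CPM in controls (median 2.97), a fall of 3.04 (edgeR's adjusted p = 0.0310). Its groups overlapped, since MK801 replicates 1 and 3 lay above the lowest control. Cyb5 fell by 0.88 and Ch25h by 1.92 on the log2 scale. The calls of all 4 genes were lost without MK801 replicate 2 or 4. Those of Lrrc55, Ch25h and Cyb5 were lost also without MK801 replicate 1 or control replicate 7, those of Cish, Lrrc55 and Cyb5 without MK801 replicate 3, and that of Cyb5 without control replicate 1, 2 or 6 (edgeR's adjusted p of up to 0.138). Mxra8 lost its call without control replicate 1, 2, 3, 4 or 7 or MK801 replicate 1, 2 or 4, and Pstpip1 without any single library other than control replicate 2.

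Other falls covered several functions. Slfn1, a Schlafen family gene of lymphoid cells, stood at 0.922, 0.619, 0.103, 0.742 and 0.597 CPM after MK801 and at 1.75 to 6.59 CPM in controls (median 3.92), a fall of 2.69 without overlap. Kmo, the enzyme of the kynurenine pathway that makes 3-hydroxykynurenine, stood at 0.0904 to 0.226 CPM after MK801 and 0.386 to 2.63 CPM in controls, a fall of 3.20 without overlap. Ccnd1, cyclin D1 of the cell cycle, stood at 22.1, 21.3, 28.6, 20.9 and 14.4 CPM against 32.4 to 51.7 CPM in controls (median 42.4), a fall of 0.97 without overlap; its rho with leukocyte genes was 0.70. Gas6, a ligand of the TAM receptors that mediate uptake of dead cells, fell by 1.40, and Icam1, an adhesion receptor for leukocytes, by 1.37. The edgeR's adjusted p of these 5 falls ran from 0.0165 for Kmo to 0.0424 for Ccnd1. All 5 lost their calls without MK801 replicate 2 or 4, and all but Kmo also without control replicate 7. Without MK801 replicate 3 the calls of Kmo, Ccnd1, Gas6 and Icam1 were lost, without control replicate 3 those of Ccnd1, Gas6 and Icam1, without control replicate 1 those of Ccnd1 and Icam1, and without control replicate 4 or MK801 replicate 1 or 5 that of Ccnd1 (edgeR's adjusted p of up to 0.123).

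Stromal lists differed among themselves. The fibroblast and matrix list had a median log2 fold change of -1.38, with 20 of 21 genes below 0. In it edgeR called 1 gene and DESeq2 10, and 17 were lower at an unadjusted p under 0.05. Its mean log2 CPM was 2.66 to 3.73 after MK801 and 3.94 to 5.52 in controls, without overlap. The called gene was Wisp2, a secreted CCN family protein also known as Ccn5, at 4.63, 4.55, 0.749, 1.59 and 1.66 CPM against 8.54 to 18.3 CPM in controls (median 11.9; log2 fold change -2.19, edgeR's adjusted p = 0.0303). Col1a1, Col1a2 and Col3a1, the main fibrillar collagen chains, had log2 fold changes of -1.45, -1.38 and -1.28 and did not pass (edgeR's adjusted p = 0.385, 0.0974 and 0.172). Col1a1 reached 48.7 CPM in MK801 replicate 4, inside the control range of 20.3 to 154 CPM, and was below it in the other 4. The endothelial list stayed inside the control range in all 5 MK801 libraries, with a median of -0.43 and 0 of 20 genes called by edgeR. At an unadjusted p under 0.05, 3 endothelial genes were lower, and DESeq2 called 1, beside 1367 and 536 of all 16084 genes. The mural list had a median of -0.41 and 0 of 12 called by edgeR or DESeq2, with 2 lower at an unadjusted p under 0.05. For the endothelial and mural lists, 0 calls by edgeR is close to the 0.622% of all genes. The difference between the fibroblast and endothelial lists was not tested.

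Aplnr, the apelin receptor of endothelial cells, which was in no list, fell from 21.9 to 54.6 CPM in controls (median 34.1) to 9.31, 12.2, 11.5, 6.05 and 11.3 CPM after MK801. The groups were well apart, and the fall of 1.86 (standard error 0.275, edgeR's adjusted p = 0.00928) held whichever library was left out. Apln, which encodes its ligand, had a log2 fold change of -0.14 (edgeR's adjusted p = 0.965). Reln, which encodes the secreted glycoprotein reelin and is expressed by lymphatic endothelium and some neurons, rose instead. It stood at 38.2, 39.7, 37.1, 24.8 and 64.7 CPM after MK801 and at 2.99 to 20.8 CPM in controls (median 6.29), a log2 fold change of 2.30 ± 0.430 (SE, edgeR's adjusted p = 0.0281). Control replicate 1 was the highest control and lay just under the lowest MK801 library, replicate 4. Of the other lymphatic endothelial genes, Lyve1 and Pdpn had log2 fold changes of 0.50 and -2.04 (edgeR's adjusted p = 0.689 and 0.0883); the median of that list was -1.29. Reln lost its call without control replicate 3 or 7 or MK801 replicate 2, 3 or 4, and Wisp2 without control replicate 1 or 7 or MK801 replicate 2, 3 or 4 (edgeR's adjusted p of up to 0.0814).

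The rises were led by Fam107a. It stood at 52.4, 49.1, 211, 164 and 28.2 CPM in MK801 replicates 1 to 5 and at 0.432 to 1.22 CPM in the B6 controls (median 0.941). The lowest MK801 library was far above the highest control, and the log2 fold change was 6.75 with a standard error of 0.571 (edgeR's adjusted p = 4.46e-05, and at most 0.00038 with any library left out). The C3H controls, which had no MK801, held 4.91 to 18.6 CPM of Fam107a, between the B6 groups. Fam107a was called in 26 of the 27 other fits run for it, the exception being the fit with leukocyte content as a covariate (edgeR's adjusted p = 0.138).

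Fkbp5 stood at 374, 342, 392, 448 and 208 CPM after MK801 and at 74.0 to 158 CPM in controls (median 143), without overlap and with MK801 replicate 5 closest to the controls (log2 fold change 1.39, standard error 0.196, edgeR's adjusted p = 0.00928). By edgeR it was the 1 called gene among the 18 of the glucocorticoid response list, whose median was 0.12. DESeq2 and limma-voom each called 2 higher, and 4 were higher and 3 lower at an unadjusted p under 0.05. Zbtb16, another hormone-induced gene, had a log2 fold change of 3.39 (edgeR's adjusted p = 0.0734), with 1.92 to 14.1 CPM after MK801 and 0.0740 to 2.04 CPM in controls. Tsc22d3 and Klf9, transcription regulators induced by glucocorticoids, had log2 fold changes of 0.54 and 0.81 (edgeR's adjusted p = 0.213 and 0.278). Sgk1 and Dusp1 had 0.04 and 0.11, and the metallothioneins Mt1 and Mt2 had -1.07 and -1.15. Crhr2, a receptor for peptides of the corticotropin-releasing factor family, stood at 3.30, 2.48, 5.32, 12.9 and 1.26 CPM against 0.135 to 1.32 CPM in controls (median 0.412), overlapping in MK801 replicate 5 (log2 fold change 3.27, edgeR's adjusted p = 0.0266). The letters AGAACA, 1 arm of the glucocorticoid response element, were not found in the promoter window of Fkbp5 and are in 19% of all windows. Fkbp5 lost its call without MK801 replicate 4 (edgeR's adjusted p = 0.051), and Crhr2 without MK801 replicate 2, 3 or 4 or control replicate 1 or 7 (up to 0.0835).

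Of the 21 circadian clock genes 1 rose, Cry2, a repressor of the clock, and the median was 0.23. Cry2 stood at 109.5, 100, 118, 109 and 128 CPM after MK801 and at 29.7 to 76.9 CPM in controls (median 54.7), without overlap (log2 fold change 1.05, edgeR's adjusted p = 0.0427). Per1 and Per2, the period genes, had log2 fold changes of 1.31 and 0.77 and did not pass (edgeR's adjusted p = 0.477 and 0.259), and Arntl, the activator that drives them, had -0.48 (edgeR's adjusted p = 0.189). The hour of sampling is not given in the labels. The E-box letters CACGTG, found in 7.15% of all windows, were not in the window of Cry2. Cry2 lost its call without any single MK801 library or without control replicate 1, 5 or 7 (edgeR's adjusted p of up to 0.121).

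Mdm1, Brca2, Rad21 and Mtus1 rose as well. Mdm1, a microtubule-binding protein of centrioles, stood at 549, 649, 549, 491 and 276 CPM after MK801 and at 155 to 213 CPM in controls (median 201), a log2 fold change of 1.36 ± 0.176 (SE, edgeR's adjusted p = 0.00685). No MK801 library overlapped the controls, and replicate 5 was the nearest to them. Brca2, which acts in the repair of DNA breaks by recombination, stood at 92.3, 161, 141.5, 66.8 and 112 CPM against 32.3 to 65.6 CPM in controls (median 59.0), with replicate 4 just above the highest control. Rad21, a subunit of the cohesin ring, stood at 999.8, 1423, 1631, 1251 and 1288 CPM against 529.9 to 1007 CPM, and replicate 1 overlapped the controls. Mtus1, a microtubule-associated protein, stood at 97.9, 143, 169, 86.7 and 106 CPM against 37.8 to 76.8 CPM (median 52.6), without overlap. Brca2, Rad21 and Mtus1 had log2 fold changes of 1.06, 0.93 and 1.09 (edgeR's adjusted p = 0.0392, 0.0303 and 0.0465). Mdm1 and Brca2 were the 2 called genes among 20 in the DNA repair and recombination list, although Mdm1 is known as a centriole protein, and the list's median was 0.09. All but Mdm1 lost their calls without control replicate 1, 3 or 7 or MK801 replicate 2, 3 or 4. Brca2 and Mtus1 lost theirs also without control replicate 2 or 4, and Mtus1 without control replicate 5 or 6 or MK801 replicate 1 (edgeR's adjusted p of up to 0.159).

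The other rises had varied functions. Gpd1, the cytosolic glycerol-3-phosphate dehydrogenase, stood at 38.1, 36.4, 41.6, 83.9 and 33.9 CPM after MK801 and at 6.95 to 18.2 CPM in controls (median 12.4), a log2 fold change of 1.88 (standard error 0.277, edgeR's adjusted p = 0.00928). Rcan2, a regulator of calcineurin, stood at 143.5, 146, 168, 248 and 141 CPM against 51.9 to 97.5 CPM (median 91.5; log2 fold change 1.02). Replicate 4 was the highest for both genes and no MK801 library overlapped the controls. Ankrd6, an ankyrin repeat protein of Wnt signalling, stood at 12.8, 31.8, 10.4, 10.1 and 11.8 CPM against 3.41 to 7.67 CPM (median 3.99; log2 fold change 1.74). C1qtnf6, a secreted C1q and TNF related protein, stood at 68.9, 101, 118, 98.7 and 89.0 CPM against 25.6 to 56.8 CPM (median 46.0; log2 fold change 1.09). Both were clear of the controls in every MK801 library, Ankrd6 with replicate 2 far above the others. Cnot8, a deadenylase of the CCR4-NOT complex, and Nrbf2, a subunit of an autophagy lipid kinase complex, had the smallest spread, with log2 fold changes of 0.80 and 0.74 and standard errors of 0.116 and 0.116. Gpd1 and Cnot8 lost their calls without MK801 replicate 4 (edgeR's adjusted p = 0.051), Nrbf2 without replicate 2 or 4, and Rcan2 and C1qtnf6 without replicate 2, 3 or 4 (up to 0.0697). Ankrd6 lost its call without MK801 replicate 1, 2, 3 or 4 or without any control replicate but the sixth (up to 0.136).

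**Figure D5:**
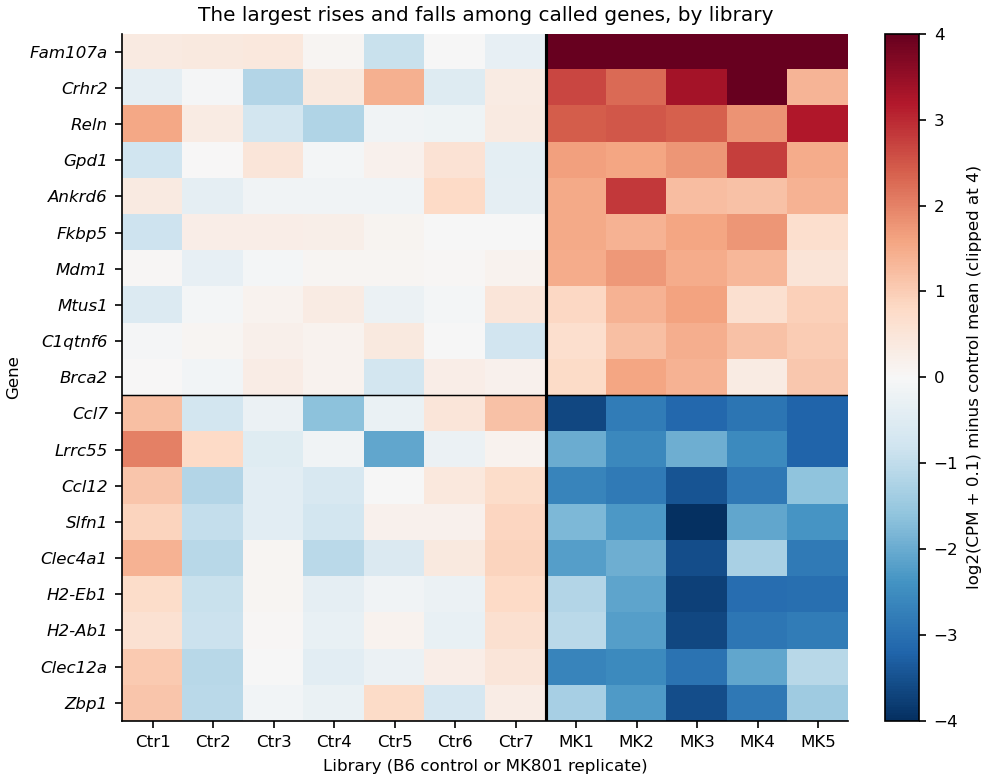
Rows are the 10 largest rises and 9 of the 10 largest falls among called genes whose mean log2 CPM reached 1. To be ranked, a gene also needed all 5 MK801 libraries on the called side of the control mean. Columns are the 7 control (Ctr) and 5 MK801 (MK) libraries, and colour gives log2(CPM + 0.1) less the mean of the controls, cut at 4 in either direction. The upper right block is red and the lower right block blue in every MK801 library, which the choice of genes largely fixed. MK5 is the palest for Fkbp5, Mdm1 and Crhr2 and MK1 the palest for H2-Eb1 and H2-Ab1.

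Some rises rested on a low level or a single library. Plch2, a phospholipase C gene, stood at 27.5 CPM in MK801 replicate 4 but between 0.0362 and 1.25 CPM in the other 4, against 0 to 0.25 CPM in controls, and overlapped them. Tex14, known from germ cell bridges, stood at 9.33, 17.0, 0.982, 0.284 and 26.5 CPM against 0.222 to 0.748 CPM, with replicate 4 inside the control range. Asb9, a substrate adaptor of ubiquitin ligases, stood at 4.24, 2.17, 4.42, 5.81 and 0.560 CPM against 0.0680 to 0.523 CPM, with replicate 5 just above the highest control. Cwh43, a gene of membrane anchor lipids, was at 0.164 to 0.568 CPM after MK801 and at most 0.0458 CPM in controls. Plch2 and Tex14 lost their calls without MK801 replicate 1, 2, 3 or 4 and without any control replicate apart from the fifth for Plch2, and Tex14 also without MK801 replicate 5 (edgeR's adjusted p of up to 0.225). Asb9 lost its call without MK801 replicate 4 (edgeR's adjusted p = 0.051).

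Calls were also counted over the lists of tumour-cell programmes and of immune, stromal and other epithelial genes, beside 0.149% of all genes higher and 0.473% lower. The 21 lists of tumour-cell programmes held 392 genes tested, of which 4 rose (Fkbp5, Cry2, Brca2 and Mdm1) and 1 fell (Ctsh). Their median log2 fold change was 0.03, with 45.9% below 0. These lists were grouped by programme, and which cells of the tumour expressed their genes was not measured. The 15 immune lists held 212 genes, of which 0 rose and 19 fell, with a median of -1.10 and 96.2% below 0. Genes outside these lists also leaned down. The 6 stromal lists held 69 genes, of which 1 rose and 1 fell, with a median of -0.535 and 79.7% below 0. The acinar and ductal lists held 27 genes, 0 of them called, with a median of -0.899 and 85.2% below 0. The ductal list had a median of -0.76, 9 of 11 genes below 0 and 5 lower at an unadjusted p under 0.05. The list of proteases linked to invasion had 25 of its 26 genes below 0, a median of -0.48 and a mean log2 CPM of 4.05 to 4.25 after MK801 against 4.48 to 5.37 in controls, without overlap. In it edgeR called 1 gene lower and DESeq2 6, and 9 were lower at an unadjusted p under 0.05. Its median rho with leukocyte genes was 0.55, and the part of leukocyte content in its level was not tested. Ctsh, the lysosomal protease cathepsin H, was the gene edgeR called; macrophages express it too, and its rho with leukocyte genes was 0.69. It stood at 53.8, 47.5, 47.6, 32.7 and 54.7 CPM after MK801 and at 62.7 to 116 CPM in controls (log2 fold change -0.82, edgeR's adjusted p = 0.0427). Mmp2 and Mmp9, gelatinases, had log2 fold changes of -1.76 and -0.44 (edgeR's adjusted p = 0.0888 and 0.877). Ctsh lost its call without control replicate 1, 3, 5 or 7 or MK801 replicate 1, 2, 3 or 4 (edgeR's adjusted p of up to 0.123).

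No beta-cell identity gene was called. Of all genes tested 0.622% were called, so 0 calls in lists of this size is close to that share. Of 16 beta-cell transcription factors, 17 genes of beta-cell function and 23 secretory granule genes, edgeR and DESeq2 called 0, and 0, 2 and 2 had an unadjusted p under 0.05. Their median log2 fold changes were -0.01, -0.20 and -0.01. Ins2, the main insulin gene, stood at 36920, 21000, 27750, 15760 and 30330 CPM after MK801 and at 8527 to 49870 CPM in controls, inside the control range. Neurod1 was at 260 to 348 CPM after MK801 and 238 to 369 CPM in controls, which gives a difference of 0.05 on the log2 scale (95% interval from -0.24 to 0.34). A missed threshold does not show equal levels. Mafa, a factor of mature beta cells, ranged from 0.0517 to 16.6 CPM after MK801 and 0.0229 to 37.8 CPM in controls, and its interval ran from -3.53 to 3.10.

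The NMDA receptor and its scaffold were measured in the same libraries. Of 24 genes of that list edgeR called 0, beside 0.622% of all genes tested. At an unadjusted p under 0.05 there were 4, and DESeq2 called 1, a rise. The median log2 fold change was 0.11. Dlgap1 stood at 37.6, 28.7, 24.7, 39.8 and 37.7 CPM after MK801 and at 23.8 to 38.2 CPM in controls, a difference of 0.18 on the log2 scale with a 95% interval from -0.42 to 0.78. Grin1, the obligatory receptor subunit, stood at 34.3, 20.8, 12.7, 79.7 and 34.0 CPM and at 3.83 to 95.9 CPM in controls, with an interval from -0.97 to 2.04. All 5 MK801 libraries lay inside the control range of Grin1. Homer2, a postsynaptic scaffold, stood at 88.6 CPM in MK801 replicate 4 but between 2.72 and 8.69 CPM in the other 4, against 0.892 to 5.88 CPM in controls (log2 fold change 2.92, edgeR's adjusted p = 0.121). Shank1, also a postsynaptic scaffold, stood at 30.9 CPM in that library and at most 1.91 CPM in the other 4, against up to 2.68 CPM in controls (log2 fold change 3.65, edgeR's adjusted p = 0.266). Fmr1, which encodes an RNA-binding regulator of synaptic translation, and Hsf1, the heat shock transcription factor, had log2 differences of 0.05 and -0.18 (edgeR's adjusted p = 0.974 and 0.911), and the heat shock list a median of -0.00 with 0 of 16 called by edgeR or DESeq2 and 1 at an unadjusted p under 0.05.

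In the lists of proliferation and stress programmes edgeR called no gene either. For lists of this size that is again close to the 0.622% of all genes. All 23 mitosis genes had a log2 fold change at or above 0, with a median of 0.20, but edgeR and DESeq2 called 0 and none had an unadjusted p under 0.05. Mki67, the proliferation antigen, stood at 795 CPM in MK801 replicate 4 and at 1339 to 1656 CPM in the others, against 690 to 1503 CPM in controls. For 24 DNA replication genes and 18 immediate early genes the medians were 0.04 and -0.08, again with 0 called by either tool and 0 at an unadjusted p under 0.05. The 24 oxidative phosphorylation genes had a median of -0.09, with 0 called by either tool and 1 at an unadjusted p under 0.05. Adjusting for acinar content left 24 higher and 49 lower genes, and the acinar list had a median of -0.90 with 0 of 16 called and 0 at an unadjusted p under 0.05. Its levels in the MK801 libraries lay inside those of the controls. By mean log2 CPM the acinar list was higher after MK801, at 6.15 against 5.69 in controls, so the 2 measures pointed opposite ways. Unfolded protein response, ATF4, cholesterol synthesis, p53 and glycolysis genes had medians of 0.02, 0.31, 0.13, 0.04 and -0.10, and edgeR called 0 in each, with 1, 2, 1, 3 and 4 at an unadjusted p under 0.05. DESeq2 called 1 p53 gene and 1 glycolysis gene and 0 of the others.

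The 5 MK801 libraries did not move equally. For the 24 rises, replicate 5 had the smallest median move, 0.99 on the log2 scale from the control mean, and the smallest move of the 5 for 12 genes. Replicate 4 had the largest move for 8. For the 76 falls, replicates 3 and 4 had the largest move for 29 and 28 genes and replicates 5 and 1 the smallest for 27 and 25. Replicate 5 lay outside the control range, in the direction of the call, for 20 of the rises and 72 of the falls, and replicate 2 for all of both.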

How the data were processed

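Tumour RNA went into Illumina TruSeq polyA libraries, as the labels' protocols state. Named in the submitters' processing notes, with no roles, are RSEM 1.2.12, Bowtie 1.0.1 and the mm9 build. The sources used here do not give the annotation, filters or strand setting, so reads of near-identical, overlapping or antisense genes may be split uncertainly. The authors deposited estimated counts per gene, not normalized, and a signal table of counts scaled by library, used only in an alternative.

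Estimated counts of 23224 genes were rounded and analysed in R 4.3.3. Genes kept by filterByExpr (16084) were fitted in edgeR 4.0.16 with TMM scaling and a quasi-likelihood test over all 3 groups. Benjamini-Hochberg adjustment covered every tested gene, with a threshold of 0.05. Standard errors were derived from the log2 fold change and F. CPM use TMM-scaled library sizes; log2 CPM used a prior count of 2. Rows whose symbols had been turned into dates (25) were tested but go unnamed. Depth limits genes far below 1 CPM; intervals come from the spread between libraries.

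Members and the 44 gene lists were chosen with earlier results of these data known. Lists are described by counts and medians, without a test. Any called gene could be named, with values per library for the 10 largest rises and falls among called genes whose mean log2 CPM reached 1 and whose MK801 libraries all deviated one way from the control mean, the first 4 members of a list, up to 4 with the smallest p, and Dlgap1, Grin1, Fmr1 and Hsf1. Apln, Ciita, Dusp1, Emr1, H2-DMb2, H2-Oa, Klf9, Mki67, Mt1, Mt2 and Neurod1 lie outside this rule and were chosen after their values were seen. Of the 10 largest falls, 1 is not reported here. The steps were tested on simulated data. The smallest chi-square between libraries of a group was 118.5 times its degrees of freedom, so none was counted as a repeat deposit. Alternatives used limma 3.58.1 (voom, and trend on the log2 of the deposited signal plus 1), DESeq2 1.42.0, other scaling, filters, samples and covariates, the replicate number as a block, and each library left out.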

Additional observations from a re-analysis of the deposited data

Results flagged for a closer look

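Of 128 groups of libraries examined for a library far from the rest, 10 had one, and chance gives about 1 in 20. Single libraries stood apart among called genes: control replicate 5 was the lowest control for Brca2, at 32.3 CPM, control replicate 7 for C1qtnf6, at 25.6 CPM, and control replicate 1 for Fkbp5, at 74.0 CPM. MK801 replicate 2 was the highest of its group for Ankrd6, at 31.8 CPM, MK801 replicate 4 for Gpd1, at 83.9 CPM, and MK801 replicate 3 the lowest for Slfn1, at 0.103 CPM. Among gene lists, by mean log2 CPM, control replicate 7 was the highest control for adipocyte genes (2.01), control replicate 1 the lowest for beta-cell function genes (7.08) and the highest for glutamate handling genes (4.27), and MK801 replicate 5 the highest of its group for genes of the ATF4 amino acid stress response (6.75).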

How the results depend on the processing

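Counts are of genes higher after MK801 and genes lower after MK801, beside 24 and 76. DESeq2 called 105 and 536, the authors' normalized values 157 lower, no filter on low counts 46 lower, the 12 B6 libraries alone 7 and 3, an acinar covariate 49 lower and a GC trend covariate 122 and 266. A leukocyte covariate left 0 and 0, with 856 genes at an unadjusted p under 0.05, beside 1930 in the main fit. At an adjusted p under 0.01 the counts were 6 and 2, and under 0.1 they were 50 and 255. Leaving out each library gave 2 to 37 higher and 2 to 165 lower genes. Chosen after seeing the data, leaving out MK801 replicates 4 and 5 gave 6 and 1, and leaving out control replicates 1 and 7 gave 13 and 5. Upper-quartile and RLE factors, limma-voom and a filter of 1 CPM in 5 libraries stayed within 1.5 times of both counts. Of the called genes 0 of 24 and 0 of 76 passed in every alternative.

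Equal replicate numbers did not pair the libraries: same-numbered MK801 and control libraries had correlations of -0.164 to 0.114, and none matched its own number best. With the replicate number as a block 1 gene was higher and 0 lower by edgeR, with 2038 at an unadjusted p under 0.05, and with the GC trend and the block together 29 and 196.

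Under the leukocyte covariate the signs of Plch2 (log2 fold change -0.83) and of the medians of the pan-leukocyte (0.105), interferon-gamma (0.206) and endothelial (0.053) lists turned. The cause was not tested. The median of all genes stayed between -0.095 and 0.031 under these settings. Depth limits the precision of genes far below 1 CPM, such as Cwh43, Kmo and Ccl7 after MK801.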
